A study of Mus musculus with 8 samples.

Results

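The M cell maturation markers are 9 genes that are switched on at different steps while an intestinal epithelial cell becomes a microfold cell (M cell), namely Marcksl1, Tnfaip2, Sox8, Gp2, Scg5, Aif1, Prnp, Pglyrp1 and Treml4. They were taken as a list of names, set with earlier results of these data known, and all 9 were found by their Ensembl identifiers among the 54532 genes of the count table. Their expression was compared between 4 libraries of control mouse intestinal organoids and 4 libraries of RANKL-treated organoids, as counts from 3′ mRNA sequencing. Organoids are epithelial structures grown in culture from intestinal crypts, without the immune and stromal cells of the gut wall. The labels of these libraries give the tissue, the treatment and a replicate number, but no genotype, strain, sex or age, and how much RANKL was used on them, and for how long, is not given in the sources used here. Nothing says that libraries of a group came from separate cultures or mice, so p-values measure the spread between these libraries, which may be technical.

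M cells are rare cells of the follicle-associated epithelium, the cell layer over Peyer's patches, and they carry particles and microbes from the gut lumen to the immune cells below. RANKL, made by stromal cells under that epithelium, binds the receptor RANK on epithelial cells and activates NF-κB, in particular its RelB and p52 arm, and the ETS factor Spi-B. Marcksl1 and Tnfaip2 are known as early markers, Sox8 as a transcription factor that acts before Gp2, and Gp2, Scg5 and Aif1 as markers of later, mature M cells. Prnp, Pglyrp1 and Treml4 were given no stage here. The comparison asks how far along this sequence the expression of markers reached in the RANKL-treated organoids.

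The total counts ran from 583663 to 7807298 in the control libraries and from 613135 to 1923354 in the RANKL libraries, so that both groups held a shallow library (control replicate 4 and RANKL replicate 1). Levels are given as counts per 1000000 (CPM) scaled by the TMM method, which corrects for differences in composition between libraries. The priming on poly(A) tails gives about 1 read position per transcript end, so a count does not scale with gene length. CPM was therefore set side by side between genes. Whether the annotated exons of each gene reach the transcript ends in use was not checked. Between groups, edgeR's quasi-likelihood test was fitted to the 9971 genes past its filter on low counts, with adjusted p-values over all of them. Of these genes, 13.6% were higher and 12.4% were lower with RANKL at an adjusted p of 0.05, and 13.1% had all RANKL libraries above all control libraries. In whole organoids, more cells of a type and more RNA per cell cannot be told apart.

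The early markers rose with RANKL, whereas no read of the late marker Gp2 was counted in any library. Marcksl1 was 13.1-fold and Tnfaip2 26.4-fold higher, and the transcription factor Sox8 went from 3 counts in the control group to 66 in the RANKL group. Of the other late markers, Aif1 was counted 6 times in the control and 35 times in the RANKL group, and Scg5 overlapped between the groups. Pglyrp1 and Prnp, which control organoids already expressed, rose 3.13-fold and 5.55-fold, and Treml4 was counted in RANKL libraries only. In all, 6 members passed the filter and were tested, and all of these were called higher, but 5 of them had too few control libraries above 5.39 CPM to pass by the control group alone, so that this count is no measure of the 9 genes against the background of 13.6%.

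**Figure D1:**
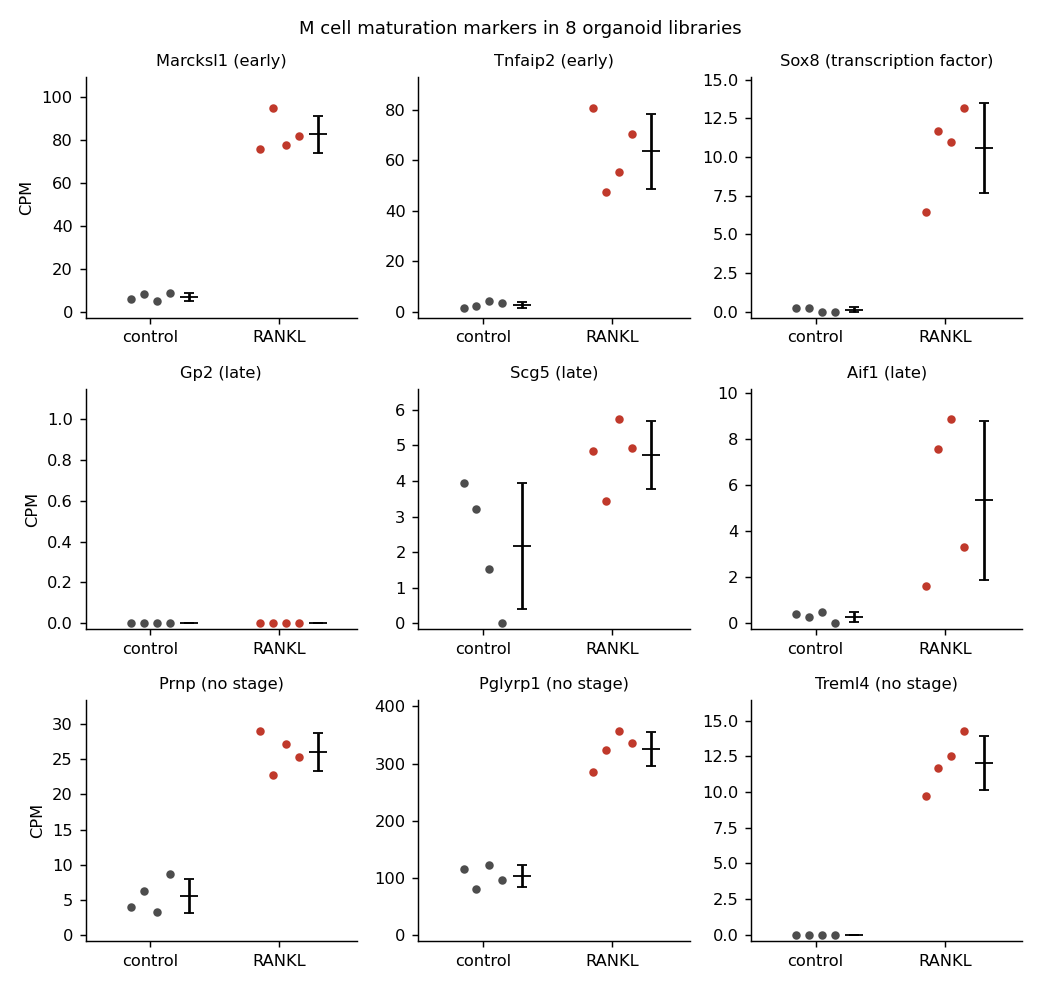
CPM of each of the 9 M cell maturation markers (linear axis from 0, with its own scale for each gene) in 4 control libraries (grey points) and 4 RANKL libraries (red points), with bars for the mean and SD of each group. In the panels of Marcksl1, Tnfaip2, Sox8, Aif1, Prnp, Pglyrp1 and Treml4 all RANKL points lie above all control points, the points of Scg5 overlap, and those of Gp2 are all at 0.

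Marcksl1, on chromosome 4 of GRCm38 (129513581 to 129515985), encodes a myristoylated protein that binds actin and calmodulin. Its level was 5.73, 8.32, 4.81 and 8.60 CPM in control replicates 1 to 4 and 75.9, 95, 77.7 and 81.8 CPM in RANKL replicates 1 to 4. The lowest RANKL library was thus several times above the highest control library, and the RANKL libraries lay close together, with an SD of 8.62 CPM around a mean of 82.6 CPM (n = 4). The log2 fold change was 3.71 (SE 0.18, edgeR adjusted p = 1.9e-16), and the exact two-sided permutation test on CPM gave p = 0.0286, the smallest value that 4 against 4 libraries allow.

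Tnfaip2, on chromosome 12 (111442469 to 111455018), encodes a relative of exocyst subunits that drives the growth of long, thin membrane bridges between cells. It was measured at 1.27, 2.15, 4.05 and 3.44 CPM in the control and at 80.7, 47.5, 55.3 and 70.3 CPM in the RANKL libraries. The groups did not overlap, and the spread among RANKL libraries was wider than for Marcksl1, at 23.5% of the mean against 10.4%. The log2 fold change was 4.72 (SE 0.26, edgeR adjusted p = 4.0e-15, exact permutation p = 0.0286).

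Sox8, on chromosome 17 (25565892 to 25570686), encodes an SRY-related transcription factor that mature M cells need to express Gp2. It was at or near 0 in controls, with 2, 1, 0 and 0 counts, and had 4, 17, 21 and 24 counts in the RANKL libraries, or 6.46, 11.7, 11.0 and 13.2 CPM. All RANKL libraries therefore lay above all control libraries, but the control level rests on 3 counts in all. The ratio of scaled counts was 61.0, with an exact 95% counting interval of 20.0 to 303, and the fitted log2 fold change was 5.61 (SE 0.49, edgeR adjusted p = 2.0e-10). Intervals of this kind cover counting error only, since reads copied by PCR are not separate molecules.

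Gp2, on chromosome 7 (119442537 to 119459285), encodes a membrane-anchored glycoprotein that binds the FimH adhesin of bacteria and is the usual marker of mature M cells. It had 0 counts in all 8 libraries. Taking 3 counts as the most that a count of 0 allows, its level could reach 0.185 CPM over the 16214577 counts of the control group and 0.521 CPM over the 5763309 counts of the RANKL group. In single RANKL libraries the same limit lay between 1.56 and 4.89 CPM. Gp2 was therefore not detectable at this depth, and a difference between the groups below these limits could not be seen. The limits hold only if the reads of its transcript end fall on its annotated exons, which was not checked.

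The group limit for Gp2 can be read against the other genes of the sequence in RANKL-treated organoids. The mean level of Sox8 was 20.3 times that limit, and those of Tnfaip2 and Marcksl1 were 122 and 159 times as high. Aif1 and Scg5 stood at 10.3 and 9.11 times the limit. Spib, the gene for Spi-B, stood at 3088 times the limit, with 1488, 1654, 1760 and 1527 CPM in the RANKL libraries. These are comparisons of levels between genes, on the scale of transcript ends.

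Aif1, on chromosome 17 (35170991 to 35176068), encodes the calcium-binding protein IBA1, best known from macrophages and microglia and also made by mature M cells. It had 3, 1, 2 and 0 counts in the control and 1, 11, 17 and 6 counts in the RANKL libraries, and too few libraries reached 5.39 CPM for the test. In CPM, the RANKL libraries (1.61, 7.57, 8.87 and 3.30) lay above the control libraries (0.382, 0.268, 0.507 and 0), with an exact permutation p of 0.0286. The lowest RANKL library rested on 1 count, and the 0 of the shallow control replicate 4 allows up to 5.14 CPM. The ratio of scaled counts was 16.2 (95% counting interval 6.73 to 47.0). Without the filter on low counts, Aif1 was called higher, with a log2 fold change of 3.78 (SE 0.62, edgeR adjusted p = 7.0e-08).

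Scg5, on chromosome 2 (113776362 to 113829121), encodes the secretory granule protein 7B2, a chaperone of the prohormone convertase PCSK2 that endocrine cells also express. It was measured at 3.95, 3.22, 1.52 and 0 CPM in the control and at 4.84, 3.44, 5.74 and 4.94 CPM in the RANKL libraries. The lowest RANKL library lay below the highest control library, so the groups overlapped, and the exact permutation test gave p = 0.0571. The ratio of scaled counts was 1.58, with a 95% counting interval of 0.959 to 2.57 that includes no change. In the fit without the filter the log2 fold change was 0.68 (SE 0.43, edgeR adjusted p = 0.43).

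**Figure D2:**
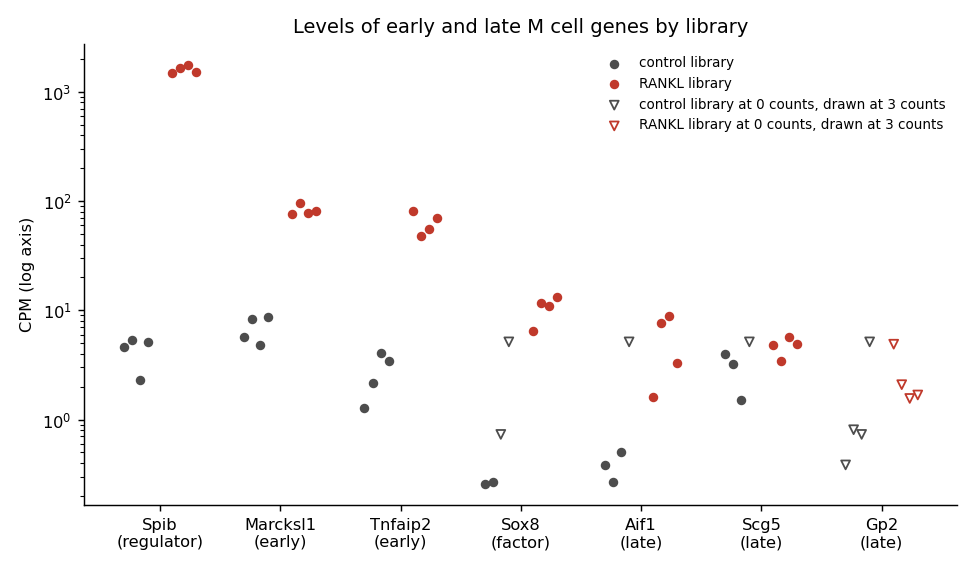
CPM per library (log axis) of Spib, the early markers Marcksl1 and Tnfaip2, the factor Sox8 and the late markers Aif1, Scg5 and Gp2, for 4 control (grey) and 4 RANKL libraries (red), with open triangles for libraries with 0 counts, drawn at 3 counts. The RANKL points lie at 1488 to 1760 CPM for Spib and at 3.44 to 5.74 CPM for Scg5, and Gp2 has open triangles alone. Those of Marcksl1 and Tnfaip2, of Sox8 and Aif1, and of Aif1 and Scg5 overlap.

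Summed by stage, the 2 early markers were at 7.0, 10.5, 8.87 and 12.0 CPM in control and 157, 142, 133 and 152 CPM in RANKL libraries. The 3 late markers together were at 4.33, 3.49, 2.03 and 0 CPM in control and 6.46, 11.0, 14.6 and 8.24 CPM in RANKL libraries. In each RANKL library the early sum exceeded the late sum by a larger factor than in any control library that had a late count. The ratio of early to late was 1.62, 3.00 and 4.38 in control replicates 1 to 3, with no late count in replicate 4, and 24.3, 12.9, 9.11 and 18.5 in RANKL replicates 1 to 4. These ratios are given as a description without a test, and 55 control and 63 RANKL counts stand behind the late sums. Of the control counts 49 were of Scg5 and 6 of Aif1, and of the RANKL counts 28 were of Scg5 and 35 of Aif1. Gp2 added none, so the control ratios set the early markers mainly against Scg5, which endocrine cells also express. The RANKL over control ratio of scaled counts was 16.2 for Aif1, between 13.4 for Marcksl1 and 27.2 for Tnfaip2. For Scg5 it was 1.58. The larger early to late ratios with RANKL therefore come from Scg5, and Aif1 by itself does not show them.

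Prnp, on chromosome 2 (131909928 to 131938429), encodes the cellular prion protein, a membrane-anchored glycoprotein that M cells also carry on their surface. It was at 3.95, 6.17, 3.29 and 8.60 CPM without RANKL and at 29.1, 22.7, 27.1 and 25.3 CPM in RANKL libraries. Every RANKL library exceeded every control library. The log2 fold change was 2.47 (SE 0.25, edgeR adjusted p = 5.4e-09, exact permutation p = 0.0286). In the annotation its exons overlap those of Prn on the same strand, which had 0 counts in all libraries. How reads on shared exons were counted was not checked, so this 0 does not show that Prnp lost no reads.

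Pglyrp1, on chromosome 7 (18871331 to 18890459), encodes a secreted protein that binds bacterial peptidoglycan and is also stored in neutrophil granules. It was the most abundant of the 9 genes in both groups, with 116, 79.4, 121 and 96.3 CPM in control and 286, 323, 357 and 336 CPM in RANKL libraries. The groups were well separated, and with 1741 and 1943 counts behind them this is the best measured of the members. Its log2 fold change of 1.65 (SE 0.12, edgeR adjusted p = 2.9e-12, exact permutation p = 0.0286) was the smallest among the 6 tested members.

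Treml4, on chromosome 17 (48264295 to 48275360), encodes a TREM-like receptor with an immunoglobulin domain, known from dendritic cells and macrophages. It had 0 counts in all 4 control libraries and 6, 17, 24 and 26 counts in RANKL replicates 1 to 4, or 9.69, 11.7, 12.5 and 14.3 CPM. Although all 73 counts fell in the less deeply sequenced group, the level varied little between its libraries, with an SD of 1.91 around 12.0 CPM (n = 4). With 3 counts set as the limit of the control group as a whole, it was at least 67.5-fold higher with RANKL (edgeR adjusted p = 4.9e-11, exact permutation p = 0.0286).

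**Figure D3:**
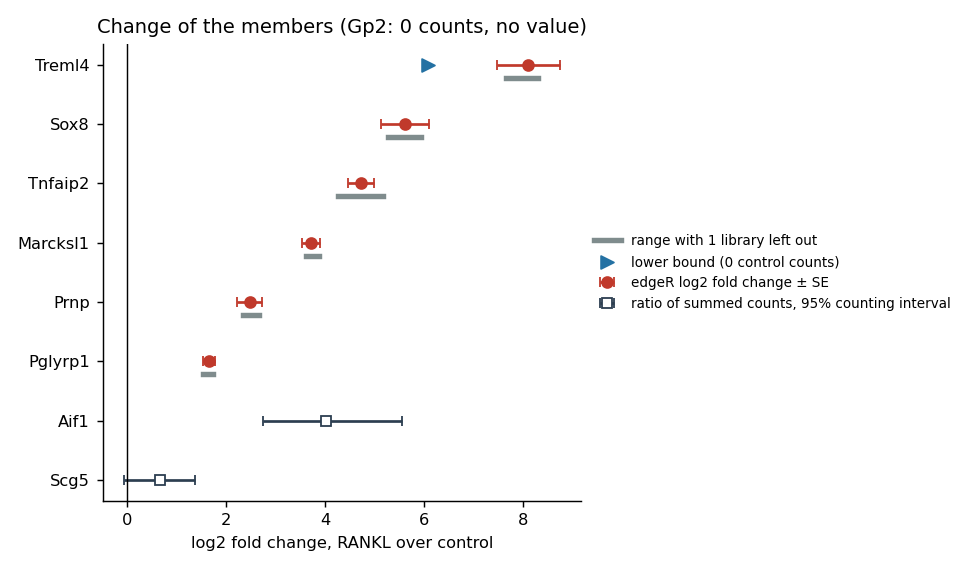
Log2 fold change, RANKL over control, of the 6 tested members from edgeR (red points, bars of 1 SE, with a grey bar under each for the range when 1 library is left out), beside the log2 ratio of scaled counts of Aif1 and Scg5 (open squares, 95% counting intervals). The tested members run from 1.65 for Pglyrp1 to 5.61 for Sox8 and the fitted value of Treml4, which depends on the prior count because its control libraries are at 0 (the arrow marks its lower bound of 67.5-fold), and the interval of Scg5 reaches 0.

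In order of level, control organoids had Pglyrp1 first at a mean of 103 CPM, then Marcksl1 at 6.87, Prnp at 5.50, Tnfaip2 at 2.73, Scg5 at 2.17, Aif1 at 0.289 and Sox8 at 0.131 CPM, with Gp2 and Treml4 at 0. Only the step from Pglyrp1 to Marcksl1 exceeded the spread, and all other neighbours in that order had overlapping libraries. In RANKL-treated organoids the order was Pglyrp1 at 326, Marcksl1 at 82.6, Tnfaip2 at 63.4, Prnp at 26.0, Treml4 at 12.0, Sox8 at 10.6, Aif1 at 5.34, Scg5 at 4.74 and Gp2 at 0 CPM. There, Pglyrp1 lay above Marcksl1, Tnfaip2 above Prnp, Prnp above Treml4 and Scg5 above Gp2 in all libraries without overlap. Neighbouring pairs that overlapped were Marcksl1 with Tnfaip2, Treml4 with Sox8, Sox8 with Aif1, and Aif1 with Scg5.

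The upstream sequences of the 4 tested members that were called higher and held a match to either motif are shown. Spi-B and NF-κB are the factors best known to act in M cells, and their motifs are short enough to look up. Each is the 250 bases before the RefSeq transcription start on GRCm38.p6, read 5′ to 3′ along the gene (all on the plus strand), with motif matches in capitals. Sox8 and Prnp, which also rose, held no match and are not shown. Aif1, which held a PU box, was outside the tested set and is not shown either. The motifs are the NF-κB consensus, searched by name on both strands, and the PU box GAGGAA, bound by Spi-B and PU.1. A PU box on the minus strand reads as TTCCTC here. Marcksl1 is chr4:129513331-129513580, Tnfaip2 chr12:111442411-111442660, Pglyrp1 chr7:18884440-18884689 and Treml4 chr17:48264045-48264294. RefSeq and the annotation used for the gene positions above differ in where some genes begin, so that the window of Pglyrp1 lies inside the gene as given above and that of Tnfaip2 runs past its first base.
Marcksl1: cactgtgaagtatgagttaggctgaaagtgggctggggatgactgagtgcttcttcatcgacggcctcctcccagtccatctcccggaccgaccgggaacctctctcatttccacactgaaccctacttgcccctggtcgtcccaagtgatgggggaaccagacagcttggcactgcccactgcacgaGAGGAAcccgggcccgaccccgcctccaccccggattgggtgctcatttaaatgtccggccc
Tnfaip2: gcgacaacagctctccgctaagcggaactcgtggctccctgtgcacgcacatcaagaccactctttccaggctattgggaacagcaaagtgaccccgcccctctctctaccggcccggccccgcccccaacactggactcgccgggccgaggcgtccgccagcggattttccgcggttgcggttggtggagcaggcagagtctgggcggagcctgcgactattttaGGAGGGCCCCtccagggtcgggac
Pglyrp1: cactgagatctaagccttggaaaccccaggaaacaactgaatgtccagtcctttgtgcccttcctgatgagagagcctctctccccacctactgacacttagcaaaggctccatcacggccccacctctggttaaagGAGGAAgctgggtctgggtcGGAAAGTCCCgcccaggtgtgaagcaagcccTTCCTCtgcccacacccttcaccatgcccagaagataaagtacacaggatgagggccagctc
Treml4: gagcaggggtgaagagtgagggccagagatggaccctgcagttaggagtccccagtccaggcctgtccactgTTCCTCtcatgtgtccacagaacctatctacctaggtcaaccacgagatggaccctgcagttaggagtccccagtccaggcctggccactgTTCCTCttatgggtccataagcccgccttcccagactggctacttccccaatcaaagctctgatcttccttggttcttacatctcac

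In Marcksl1 the capitals are a PU box whose first base lies at position -62, counted from the start. In Tnfaip2 they are an NF-κB match at -24. Pglyrp1 holds PU boxes at -113 and -62 and, between them, an NF-κB match at -93. Treml4 holds a PU box at -178 and another at -87, each just after a copy of an exact repeat of 40 bases, and the copies begin 91 bases apart. None of these matches overlapped another.

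Over windows of 300 bases (250 before to 50 after the start), the PU box was found in 5 of the 9 members, against 28.3% of all 32851 RefSeq windows. The NF-κB consensus was found in 2 of 9 members (Tnfaip2 and Pglyrp1) against 8.46% of windows. The SOX core AACAAT, searched on both strands, was found in 1 of 9 (Aif1) against 10.7%. Gp2 and Aif1 were the other members with a PU box, the former at position 13 after its start. The letters of a motif are a description and not a binding site, and these counts were not tested.

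A list of 11 other genes of M cells and follicle-associated epithelium gave 9 tested genes, of which 7 were higher, 1 was lower and 1 was not called. The genes Spib, Ccl20, Cxcl16, Clu and Ubd, 5 of the 7 that were higher, had too few control libraries above 5.39 CPM to pass the filter by the control group alone, so that nothing is read from this count beside the 13.6% of all genes tested. Spib rose from a mean of 4.35 to 1607 CPM, or by 8.56 on the log2 scale (SE 0.16, edgeR adjusted p = 4.8e-27). Anxa5, which encodes a phospholipid-binding annexin, rose from 10.1 to 97.6 CPM (log2 fold change 3.31, SE 0.17, edgeR adjusted p = 5.1e-16). Marcksl1 and Tnfaip2, with log2 fold changes of 3.71 and 4.72, lay between Anxa5 and Spib, and the differences between these genes were not tested.

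Among the chemokines of the list, Ccl20, the ligand of CCR6 that draws B cells and dendritic cells to the follicle-associated epithelium, rose from 2.87 to 55.9 CPM. Cxcl16 rose from 4.35 to 57.0 CPM, and Ccl9 rose from 30.9 to 76.4 CPM (log2 fold change 1.29, SE 0.13, edgeR adjusted p = 6.6e-09). Ccl6, a close relative of Ccl9, had means of 82.6 CPM (control) and 92.9 CPM (RANKL) and was not called (log2 fold change 0.18, edgeR adjusted p = 0.34). Ubd, which encodes the ubiquitin-like protein FAT10, had no control count and 76 RANKL counts, at least 70.2-fold higher.

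Krt18, an epithelial keratin, was the list's gene that fell, from 638 to 394 CPM (log2 fold change -0.70, SE 0.09, edgeR adjusted p = 9.4e-07). Clu, which encodes clusterin, was called higher with overlapping groups (log2 fold change 1.22, SE 0.35, edgeR adjusted p = 0.0089), and its call was lost in several alternative fits, for example without RANKL replicate 4 (0.93, edgeR adjusted p = 0.12) and without control replicate 1 (0.94, edgeR adjusted p = 0.051). Msln and Psg18 were too low to be tested.

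**Figure D4:**
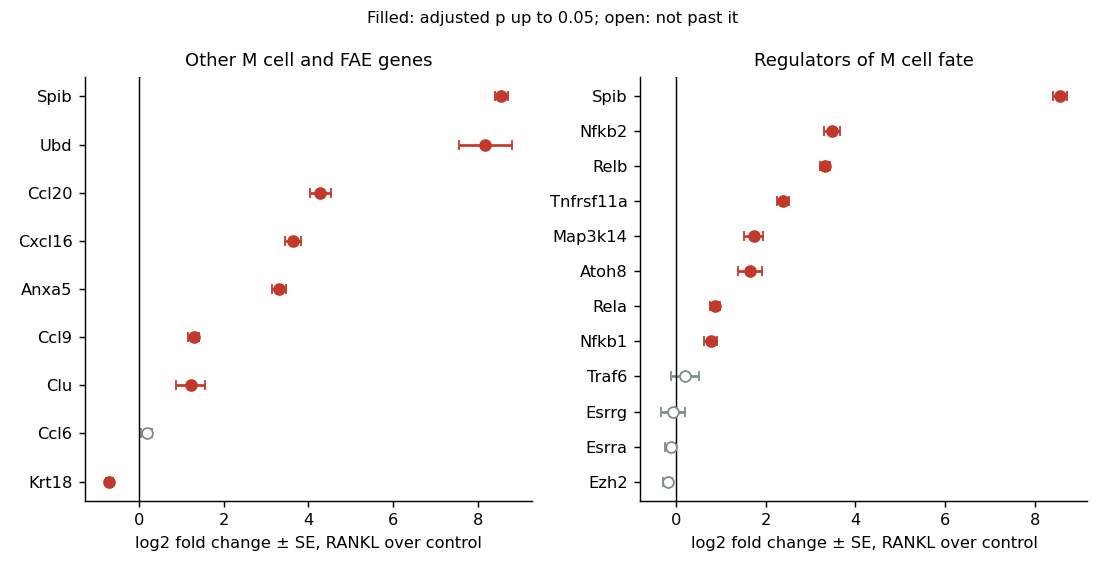
Log2 fold change, RANKL over control, with bars of 1 standard error from edgeR, for the tested genes of the list of other M cell genes and of the list of regulators, with filled points for genes past an adjusted p of 0.05. Spib at 8.56 stands far to the right of the regulators Nfkb2 at 3.48 and Relb at 3.32, and the fitted value of Ubd depends on the prior count because its control libraries are all at 0.

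Of 14 regulators of M cell differentiation, 12 were tested, 8 were higher, none was lower and 4 were not called, where 13.6% of all genes tested were higher. Of the 8, Spib, Atoh8, Nfkb2 and Map3k14, which is 4, passed the filter through their RANKL libraries, so that the count is partly set by the filter. Tnfrsf11a, the gene for RANK itself, rose from 31.0 to 156 CPM (log2 fold change 2.39, SE 0.14, edgeR adjusted p = 7.2e-15). Its ligand gene Tnfsf11 had 0 counts in all libraries. Tnfrsf11b, the gene for the decoy receptor osteoprotegerin, had 0 control and 39 RANKL counts, at least 36.0-fold higher, without a test.

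The genes of the RelB and p52 arm were among those that rose. Relb went from 39.8 to 407 CPM (log2 fold change 3.32, SE 0.11, edgeR adjusted p = 2.2e-20) and Nfkb2, which encodes the precursor of p52, from 8.68 to 103 CPM (3.48, SE 0.18, edgeR adjusted p = 6.5e-16). Map3k14, the kinase NIK of this arm, rose by 1.73 on the log2 scale, and Rela and Nfkb1, of the other arm, rose by 0.87 and 0.77. These are RNA levels, and neither the differences between these genes nor the activity of either arm was tested. Atoh8, which encodes a bHLH transcription factor, rose from 5.36 to 18.4 CPM (log2 fold change 1.65, SE 0.27, edgeR adjusted p = 1.9e-05).

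The nuclear receptor genes Esrrg and Esrra, the adaptor gene Traf6 and the histone methyltransferase gene Ezh2 were the regulators not called. Esrrg, which like Sox8 is known to be needed for Gp2 expression, had 15 ± 2.89 CPM without and 11.7 ± 6.96 CPM with RANKL (SD, n = 4), with a log2 fold change of -0.07 (SE 0.27, edgeR adjusted p = 0.87). The fold changes of Esrra, Traf6 and Ezh2 were -0.12, 0.20 and -0.19. Sox8 and Esrrg thus differed in their own comparisons, and the difference between these genes was not tested. Exons of Esrra and Map3k14 overlap those of Mir6990 and 1700028N14Rik in the annotation.

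Relatives of the members were set beside them, with 22 genes of which 12 had counts and 6 were tested. Pglyrp2, a peptidoglycan amidase related to Pglyrp1, had 0 control and 49 RANKL counts, at least 45.3-fold higher (edgeR adjusted p = 3.8e-09), and Pglyrp3 and Pglyrp4 were at 0 throughout. Marcks, the relative of Marcksl1, rose from 231 to 506 CPM (log2 fold change 1.10, SE 0.11, edgeR adjusted p = 5.3e-09). Marcks was thus called higher like Marcksl1, and Pglyrp2 like Pglyrp1, but Pglyrp2 passed the filter through its RANKL libraries alone.

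Exoc3l4, the neighbour and relative of Tnfaip2 on chromosome 12 (111417017 to 111431678), went up from 206 to 300 CPM (log2 fold change 0.53, SE 0.10, edgeR adjusted p = 0.00025). The exocyst subunit gene Exoc3 was at 65.2 and 61.7 CPM and was not called (log2 fold change -0.06, edgeR adjusted p = 0.77). Sox9, of the same group of SOX factors as Sox8 and a gene of crypt cells, rose by 0.63 on the log2 scale from 585 to 902 CPM, while Sox10 was at 0. Trem1, Trem3 and Treml1 had no count in any library. Treml2 had 1 control and 8 RANKL counts, with a ratio of scaled counts of 22.2 (counting interval 2.97 to 984) and overlapping groups. Trem2 had 1 control and 1 RANKL count, with a ratio of 2.77 (0.0353 to 218) that includes no change. Both were too low to be tested, so that among the TREM genes Treml4 was the tested gene. Pcsk1, a prohormone convertase gene, was not called (log2 fold change 0.24, edgeR adjusted p = 0.60), and Pcsk2, the partner of the Scg5 product, and Umod, the relative of Gp2, were at 0.

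Since Aif1, Treml4 and Pglyrp1 are also known from myeloid cells and Scg5 from enteroendocrine cells, markers of these cells were counted in the same libraries. Of 17 myeloid markers, 13 had counts and none reached the tested set. Itgax, Tyrobp, C1qb and C1qc were at 0 and Ptprc, which marks all leukocytes, had 1 count. The summed level of the 17 ran from 8.60 to 13.9 CPM in control and from 10.3 to 24.2 CPM in RANKL libraries, and within it Cd14 had 1.04 ± 0.597 CPM without and 4.78 ± 1.17 CPM with RANKL (SD, n = 4), with no overlap between the groups. Cd68 lay the other way, with 43 control and 4 RANKL counts (ratio of scaled counts 0.258, 95% counting interval 0.0672 to 0.710). Its groups overlapped (exact permutation p = 0.257), and 29 of the control counts were from control replicate 1. Cx3cr1 had 7 and 1 counts, with a ratio of 0.396 (0.00879 to 3.08) that includes no change. Adgre1 had 3 and 0 counts, too few to give a direction in the less deeply sequenced RANKL group. The ratios of C1qa, Laptm5 and S100a8 were 1.11 (0.353 to 3.02), 2.08 (0.595 to 6.83) and 1.85 (0.154 to 16.1), each including no change. Like Cd14, the markers Lyz2, Itgam and Fcer1g lay higher with RANKL, on 8 and 9, 9 and 10, and 5 and 7 counts. Their ratios were 3.12 (1.07 to 9.29), 3.08 (1.12 to 8.57) and 3.88 (1.06 to 15.5), with overlapping groups. Csf1r, the myeloid marker with the most counts (93 and 30), had a ratio of 0.894 (0.572 to 1.36). In the same RANKL libraries Treml4 alone was at 9.69 to 14.3 CPM and Pglyrp1 at 286 to 357 CPM, and the part of myeloid cells in the levels of Aif1, Treml4 and Pglyrp1 was not tested.

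Of 16 enteroendocrine markers, 12 were tested and 3 were higher, where 13.6% of all genes tested were higher, and nothing is read from this count. The 3 were the hormone genes Gip, Cck and Sct, with log2 fold changes of 0.38, 0.39 and 0.46. The summed level of the 16 markers was 867 to 960 CPM in control and 911 to 1034 CPM in RANKL libraries. The part of enteroendocrine cells in the Scg5 values was not tested. Of 6 epithelial markers, all abundant, Cdx1 alone was called, as higher (log2 fold change 0.79, edgeR adjusted p = 2.6e-06), and nothing is read from this count beside the 13.6%. The sum of the 6 was 4769 to 5642 CPM in control and 5138 to 5630 CPM in RANKL libraries. The labelled tissue was therefore matched by its defining markers in both groups.

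Of 7 stromal markers, Pdgfrb was the tested gene and was higher, from 3.87 to 19.0 CPM (log2 fold change 2.53, SE 0.30, edgeR adjusted p = 7.0e-08), with Dcn at 0. The stromal sum was 3.80 to 8.60 CPM in control and 17.9 to 25.0 CPM in RANKL libraries, a difference that Pdgfrb alone made. Without Pdgfrb, which passed the filter through its RANKL libraries, the sums overlapped, at 1.01 to 3.44 CPM in control and 0.688 to 3.23 CPM in RANKL libraries, with Col1a1 at 13 control and 2 RANKL counts. The part of stromal cells in the levels of the M cell genes was not tested. The 6 M cell markers used for the same purpose (Gp2, Spib, Sox8, Tnfaip2, Anxa5 and Ccl9), of which 3 are members, summed to 44.6 to 54.2 CPM in control and 1758 to 2000 CPM in RANKL libraries. Spib made up most of the RANKL sum, and without it the sums were 40.0 to 52.0 CPM in control and 233 to 270 CPM in RANKL libraries. Gp2 was at 0, and of the 5 others, all called higher, Spib, Sox8 and Tnfaip2 passed the filter through their RANKL libraries.

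**Figure D5:**
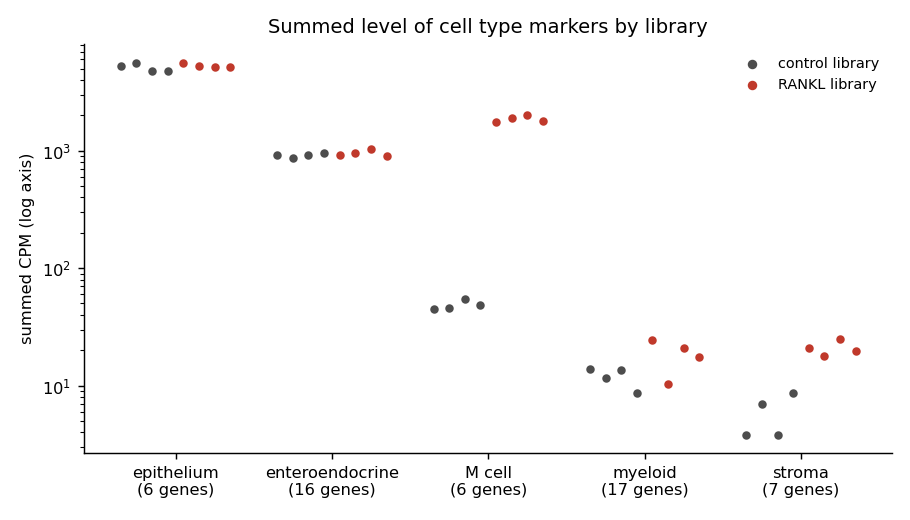
Summed CPM per library (log axis) of the marker lists of epithelium, enteroendocrine cells, M cells, myeloid cells and stroma, for 4 control (grey points) and 4 RANKL libraries (red points). The M cell sum is 44.6 to 54.2 CPM in control and 1758 to 2000 CPM in RANKL libraries, most of it Spib, the stromal rise is that of Pdgfrb, and the highest myeloid sum is 24.2 CPM.

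The 5 genes whose pattern over the 8 libraries was most like that of the 6 tested members were Mylk, Arhgef40, Serpinb1a, Spib and Id2, with Pearson correlations of 0.999, 0.998, 0.997, 0.997 and 0.997 to the mean standardised log2 CPM. Of 9924 genes compared, 262 had a correlation of at least 0.95, and with a difference between 2 groups of libraries any gene that moves strongly and evenly comes near 1. Mylk, the gene for myosin light chain kinase, had a mean of 467 CPM in control and 1588 CPM in RANKL libraries. Arhgef40 was at 7.84 and 122 CPM, and Serpinb1a, an inhibitor of neutrophil-type proteases, at 237 and 1508 CPM. Id2, which encodes an inhibitor of bHLH factors, was at 44.8 and 237 CPM.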

How the data were processed

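RNA of 8 organoid libraries, 4 control and 4 RANKL, was sequenced with the QuantSeq forward 3′ kit as single reads of 50 bases. Per the labels and the study's methods, the authors trimmed the reads, removed those of ribosomal and mitochondrial origin, aligned the rest to GRCm38 and counted them on Ensembl genes by strand. The deposited values are raw counts per gene, without normalization. Molecular identifiers are not mentioned in the sources used here.

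Totals ran from 583663 to 7807298 counts per library. Symbols and positions came from GENCODE M21 on the same build, which matched 54495 of 54532 genes and is another release than the authors counted on. Upstream sequences came from RefSeq on GRCm38.p6.

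edgeR 4.0.16 (R 4.3.3; TMM, its filter on low counts, quasi-likelihood test, Benjamini-Hochberg over 9971 genes, threshold 0.05) compared RANKL with control. Standard errors are the log2 fold change divided by the square root of F. Exact permutation tests used 70 assignments. A count of 0 allows 3 counts. Likeness used log2 CPM with a prior count of 1 for genes with a mean of at least 5 CPM. The steps were tested on simulated data. Alternatives were DESeq2 1.42.0, its size factors, library totals alone, limma 3.58.1 with voom, no filter, a minimum of 10 counts in each library, a block for the replicate number, the log2 library total as a covariate, each library left out, an adjusted p of 0.01 and a fold of 2. A fit without both shallowest libraries was added once the data had been seen. Python 3.11.15 with pandas 2.3.3 handled the tables.

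Named genes are the 9 members, called or call-changing genes of the lists of other M cell genes and regulators, tested relatives, cell type markers at 0 or called, and the 5 genes most alike. The members, lists and tests were chosen with earlier results of these data known. Ccl6, Msln, Psg18, Tnfsf11, Tnfrsf11b, Esrrg, Esrra, Traf6, Ezh2, Cd14, Cd68, Cx3cr1, Adgre1, Lyz2, Itgam, Fcer1g, Csf1r, Col1a1, Ptprc and the relatives at 0 lie outside the rule and are named to account for their lists. The same holds for C1qa, Laptm5, S100a8, Trem2 and Treml2. Within a group, the chi-square of counts over its degrees of freedom was 1.31 to 13.8 for pairs of libraries, above counting noise. Each library was used as 1 replicate, but this spread cannot show that the libraries came from separate cultures or mice.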

Additional observations from a re-analysis of the deposited data

Results flagged for a closer look

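Over 58 groups of 4 libraries compared for the named genes, the highest or lowest library stood apart from the others by Dixon's criterion in 2, where chance gives about 1 in 20, or 2.9 groups. Clu was at 15.5 CPM in control replicate 4, the shallowest library, on 9 counts, against 3.18 to 4.83 CPM in the other control libraries. Psg18 was at 0.127 CPM in control replicate 1, on 1 count, against 0 in the others. None of the 9 M cell maturation markers was among them.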

How the results depend on the processing

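Over 97 fits of the tested M cell maturation markers under 17 alternatives, every fit kept its direction and its call. The log2 fold changes ran from 3.60 to 3.88 for Marcksl1, 4.20 to 5.16 for Tnfaip2, 5.06 to 6.56 for Sox8, 2.10 to 2.66 for Prnp, 1.52 to 1.80 for Pglyrp1 and 6.20 to 8.59 for Treml4. The number called higher was 6 in each alternative but 2, and it was 6 in each fit that left out 1 library. Without a filter it was 7, with Aif1 at 3.78. With at least 10 counts in every library it was 1 (Pglyrp1), because 1 member was left to test, and the other lists fell for the same reason to 1 of 3 tested for the other M cell genes and 4 of 6 tested for the regulators. Leaving out 1 library gave 6 to 7 for the former, 8 to 9 for the latter and 1853 to 2601 changed genes in the whole table, against 2587 in the full fit, 1636 at an adjusted p of 0.01 and 577 with a fold of at least 2. Clu was also lost with DESeq2 (1.05, adjusted p = 0.066), the depth covariate (0.48, adjusted p = 0.41 by edgeR) and the replicate block (0.84, adjusted p = 0.061 by edgeR). Genes that were never called changed sign, and the cause was not tested. Esrrg was at 0.13 without both shallowest libraries and 0.08 without RANKL replicate 1 or 2 (range -0.31 to 0.08 over the libraries left out). Traf6 was at -0.01 with limma-voom and -0.06 without RANKL replicate 4 (range -0.06 to 0.59), and Pcsk1 at -0.02 without control replicate 3 (range -0.02 to 0.50). With the replicate number as a block, 2610 genes changed and 6 members were called. Deviations of same-numbered libraries correlated by -0.032 to 0.097, and those of differently numbered libraries by -0.127 to 0.083. Counting noise in the shallow libraries can hide a shared culture, so whether the numbers pair the libraries was not settled. Depth limits Gp2, Aif1 and Scg5, whose counts are too few for a test with the filter over all 8 libraries. In the fit without both shallowest libraries 7 members passed the filter, Scg5 among them. There 6 were called higher, and Scg5 was not called.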
